A study of Mus musculus with 11 samples.

Results

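Abcd3 and Pxmp2 code for 2 abundant integral proteins of the peroxisomal membrane, and their transcripts were followed here in dilated and hypertrophied mouse hearts. The array platform assigns 2 spots to Abcd3 and 1 spot to Pxmp2, which makes 3 of the 17664 printed spots and 2 of the 8106 named genes that could be analysed. Both genes had a value on all 11 arrays. They were selected on their ratios in the 3 group comparisons of these same arrays, where earlier results showed them lower in the transgenic hearts, so the values below are a description and carry no test. In the mouse genome (GRCm38.p6) Abcd3 (gene 19299) lies on chr3:121758904-121815302 and Pxmp2 (gene 19301) on chr5:110274286-110286222. The platform ties the spots to the transcripts NM_008991 and NM_008993. The spots carry cDNA clones, and which exons each clone covers is not given in the sources used here.

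ABCD3, also known as PMP70, is an ATP-driven transporter that works as a dimer and brings branched-chain, dicarboxylic and other long-chain acyl-CoA esters into the peroxisome for oxidation. PXMP2, also known as PMP22, belongs to the Mpv17 family and forms a channel through which small metabolites cross the peroxisomal membrane. Peroxisomes shorten fatty acids that mitochondria handle poorly, start the synthesis of ether lipids and break down hydrogen peroxide. In rodent liver many of their genes are driven by the nuclear receptor PPAR alpha, and the heart also relies on fatty acids as fuel.

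The hearts came from 12 male C57/BL6 mice of about 60 weeks of the TG1306/1R line, in which angiotensinogen, the precursor of angiotensin II, is overexpressed in the heart. The 4 Dil mice were heterozygous for the transgene (-/+) and had a dilated heart, the 4 Hyp mice were heterozygous (-/+) with concentric hypertrophy, and the 4 WT mice were littermates without the transgene (-/-). Relative to body weight the hearts weighed 8.22 ± 0.665 mg/g in Dil mice (SD, n = 4 in each group), against 5.54 ± 0.18 mg/g in Hyp mice and 4.53 ± 0.287 mg/g in WT mice. The labels give Hyp3 2 values, 5.3 and 5.6 mg/g, and their mean was used. Carrier hearts were sorted into Dil and Hyp partly by this cardiac weight index, by chamber shape and by hypertrophic marker expression, so the index describes the groups and is no separate outcome. The transgene's promoter is not named in the sources used here.

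RNA of the right and left ventricles and septum was compared on 2-colour cDNA arrays, 2 mice to an array. Mice that share a number from 1 to 4 are called a set, and each array compared 2 mice of a set, with 3 arrays of Dil and WT, 4 of Hyp and WT and 4 of Dil and Hyp. The second set lacks its Dil and WT array, which was not analysed here. Each value is a log ratio of the 2 dyes, taken as log2 of Cy5 over Cy3 and turned so that the group named first is on top. No source used here states the base or the direction. The direction is only likely: with it Nppb, a hypertrophic marker, was 2.53 ± 0.32 higher in Dil and 1.02 ± 0.30 higher in Hyp than in WT hearts on the log2 scale (fitted change ± SE), and Agt, the overexpressed gene, was 2.15 ± 0.40 and 2.09 ± 0.40 higher. The Agt ratio was nevertheless -0.24 on the Hyp over WT array of set 3, and Agt had no value on that of set 1. With the other direction every sign below would turn, and if the values are natural logarithms every fold is too small. A ratio holds no level, so neither gene's abundance, nor the labelled tissue, could be checked against the level of its markers. In whole ventricle, fewer cells of a type and less RNA per cell cannot be told apart.

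On the array of Hyp1 and WT1 the rows of the deposited column were displaced by 8 print blocks and were moved back. Its values for the 2 Abcd3 spots are -0.36 and -0.53 after the realignment, against 0.022 and 0.054 in the row order as deposited. For Pxmp2 they are -0.037 and -0.089. The 2 other arrays of set 1, added up, estimate the same ratio at -0.72 and -0.73 for the Abcd3 spots and at -0.15 for Pxmp2. For Abcd3 the realigned values have the sign of that estimate and the values as deposited do not. For Pxmp2 both have its sign, and the value as deposited is the nearer one. The shift itself was found from correlations with these arrays over all spots, so the estimate is no independent check.

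The stretch of 250 bases before the start of Abcd3 (GRCm38.p6, chr3:121815303-121815552, minus strand, from RefSeq) is shown as the upstream region of one of 2 genes that were lower together. Each CG, the site of DNA methylation, is in capitals. Pxmp2 has no entry in the table used.

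Abcd3: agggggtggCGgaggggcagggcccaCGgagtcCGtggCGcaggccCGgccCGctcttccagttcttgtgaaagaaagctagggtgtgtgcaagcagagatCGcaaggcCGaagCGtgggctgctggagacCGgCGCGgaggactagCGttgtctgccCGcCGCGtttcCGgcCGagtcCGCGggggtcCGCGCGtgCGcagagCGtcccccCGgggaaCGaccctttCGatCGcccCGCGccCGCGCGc

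The stretch is 72% G or C and holds 34 CG dinucleotides. Of all mouse windows of this length, 93.1% had a lower G and C content and 96.5% had fewer CG, with medians of 52.4% and 6. AGGTCA, the core letters bound by PPAR and its relatives, was searched on both strands in windows of 250 bases before to 50 after a start. It was absent from both Abcd3 windows in the table and present in 16.3% of all windows. These arrays measured no binding and no methylation.

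Abcd3 was lower in both groups of transgenic hearts than in WT hearts, on every direct array. On the Dil over WT arrays its log2 ratio was -0.70 in set 1, -0.41 in set 3 and -0.49 in set 4. On the Hyp over WT arrays it was -0.44, -0.47, -0.22 and -0.39 in sets 1 to 4. All 7 carrier over WT arrays lay below 0, and the 3 Dil values overlap the 4 Hyp values. On the Dil over Hyp arrays the ratio was 0.029, 0.0012, -0.15 and -0.56 in sets 1 to 4, so before dye correction only set 4 stands clearly below 0. With the dye term of the fit below removed, these ratios were -0.043, 0.073, -0.22 and -0.49.

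A fit over all 11 arrays, which uses the indirect paths through the third group and removes a dye term, gave a change of Abcd3 of -0.52 ± 0.084 for Dil minus WT (SE, 4 mice per group), which is 30.4% lower transcript in Dil hearts. For Hyp minus WT the change was -0.37 ± 0.080, or 22.4% lower. For Dil minus Hyp it was -0.16 ± 0.080, or 10.3% lower. This last value moved to -0.073 without set 4 and to -0.052 when all arrays were scaled to the same spread. Of the 8106 named genes, 73 lay lower than Abcd3 in Dil minus WT, 32 in Hyp minus WT and 690 (8.51%) in Dil minus Hyp.

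The 2 Abcd3 spots sit in different print blocks (17 and 22) and gave a repeat measurement on each array. Their ratios differed by 0.11 on average (absolute difference, log2 scale) and had the same sign on 9 of 11 arrays. Across the 11 arrays Pearson's r was 0.96, a description only, since arrays share mice. The spot in block 17 alone gave -0.46 for Dil minus WT and -0.33 for Hyp minus WT. The spot in block 22 alone gave -0.59 and -0.41, so the ordering of the comparisons did not depend on the spot.

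Pxmp2 was also below WT on every direct array, but its ratios, not corrected for dye, were spread more widely than those of Abcd3. Its log2 ratio on the Dil over WT arrays was -0.29 in set 1, -0.51 in set 3 and -1.12 in set 4. On the Hyp over WT arrays it was -0.037, -0.44, -0.31 and -0.13 in sets 1 to 4. Before dye correction the 2 ranges overlap, and the Hyp value of set 1 is close to 0. With the fitted dye term removed, Hyp over WT was -0.18, -0.29, -0.16 and -0.28 in sets 1 to 4. Dil over WT was then -0.44, -0.66 and -0.97 in sets 1, 3 and 4. On the Dil over Hyp arrays the uncorrected ratio was -0.14, 0.14, -0.78 and -0.79, so sets 3 and 4 carried the lower level of Dil hearts. With the dye term removed, set 1 was at 0.0051 and set 2 at -0.011.

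The fitted change of Pxmp2 was -0.65 ± 0.13 for Dil minus WT (SE, 4 mice per group), or 36.1% lower in Dil hearts. It was -0.24 ± 0.12 for Hyp minus WT, or 15.3% lower. For Dil minus Hyp it was -0.41 ± 0.12, or 24.5% lower, which came to -0.25 without set 4 and to -0.26 with all arrays scaled to the same spread. Of the named genes, 32 lay lower than Pxmp2 in Dil minus WT, 128 in Hyp minus WT and 50 in Dil minus Hyp.

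**Figure D1:**
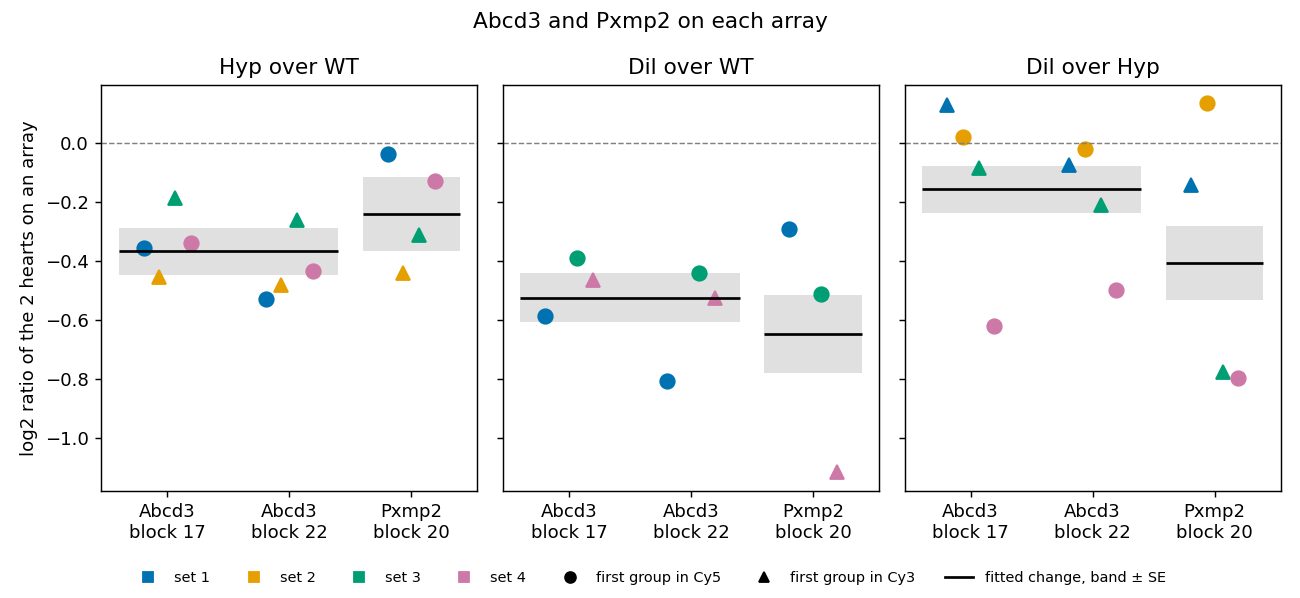
Log2 ratio of the 2 hearts on each array for the 3 spots, in panels for Hyp over WT, Dil over WT and Dil over Hyp, with colours for the set and marker shapes for the dye of the first group. Black lines with grey bands are the fitted change ± SE of each gene (both Abcd3 spots averaged). Every point of the first 2 panels lies below 0, and the Pxmp2 points of Dil over WT run from -0.29 to -1.12.

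The dye effect was removed in the fit. The fitted dye term was -0.072 for Abcd3 and 0.15 for Pxmp2, both smaller than the fitted Dil minus WT changes. Where a set had all 3 arrays, the direct Dil over WT ratio was set against the path through the Hyp heart. These ratios still hold the dye effect, so both can differ by dye terms even without error. For Abcd3 the direct and indirect values were -0.70 and -0.41 in set 1, -0.41 and -0.37 in set 3, and -0.49 and -0.95 in set 4. For Pxmp2 they were -0.29 and -0.18 in set 1, -0.51 and -1.09 in set 3, and -1.12 and -0.92 in set 4. The gap between both was -0.28 for Abcd3 in set 1, whose path runs through the realigned array, 0.45 for Abcd3 in set 4 and 0.57 for Pxmp2 in set 3. These 3 gaps exceed in size the median absolute gaps over complete features, which were 0.13, 0.29 and 0.28 in sets 1, 4 and 3, and the other 3 do not. With the fitted dye term removed, Pxmp2 in set 3 had -0.66 for Dil over WT, beside -0.63 for Dil over Hyp and -0.16 for Hyp over WT. Abcd3 in set 4 then had -0.57, beside -0.49 and -0.31.

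The arrays of a set were also combined into 1 estimate, without a dye term. The Dil minus WT change of Abcd3 was then -0.60, -0.47, -0.40 and -0.64 in sets 1 to 4, and that of Pxmp2 was -0.25, -0.30, -0.70 and -1.05. All 8 estimates lie below 0. The Dil hearts of sets 3 and 4 had the lowest Pxmp2, while Abcd3 showed no such split, since its set 1 value is close to that of set 4. For Hyp minus WT the estimates were -0.54, -0.47, -0.24 and -0.24 for Abcd3 and -0.074, -0.44, -0.12 and -0.19 for Pxmp2. Again all 8 lie below 0, and set 1, with the lowest Abcd3, had the Pxmp2 value nearest to 0. This order depends on the dye effect left in. On the dye-corrected Hyp over WT arrays Abcd3 was lowest in set 2 (-0.54) and Pxmp2 was nearest to 0 in set 3 (-0.16). The set 2 value of Dil minus WT rests on the path through the Hyp heart alone.

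The 2 genes were also set against each other within a set, by the same estimates without a dye term. Their fitted dye terms have opposite signs, and the dye effect is not removed from these differences. Pxmp2 minus Abcd3 in Dil minus WT was 0.35, 0.16, -0.30 and -0.41 in sets 1 to 4, a mean of -0.050 ± 0.36 (SD, n = 4 sets). In Hyp minus WT it was 0.46, 0.028, 0.12 and 0.043, a mean of 0.16 ± 0.20. In Dil minus Hyp it was -0.11, 0.13, -0.42 and -0.45, a mean of -0.21 ± 0.28. No mean is larger in size than the SD of single sets, which is no test of a difference between the genes. The Hyp minus WT differences all have the same sign. Sets with the larger drop of Pxmp2 in Dil hearts were those whose Dil over WT arrays had the wider spread over all features, with scaled median absolute deviations of 0.34 and 0.35 in sets 3 and 4 against 0.17 in set 1. The part of that spread in the Pxmp2 values was not tested, though with the arrays scaled to the same spread the Dil minus WT change was -0.51 for Pxmp2 and -0.49 for Abcd3.

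**Figure D2:**
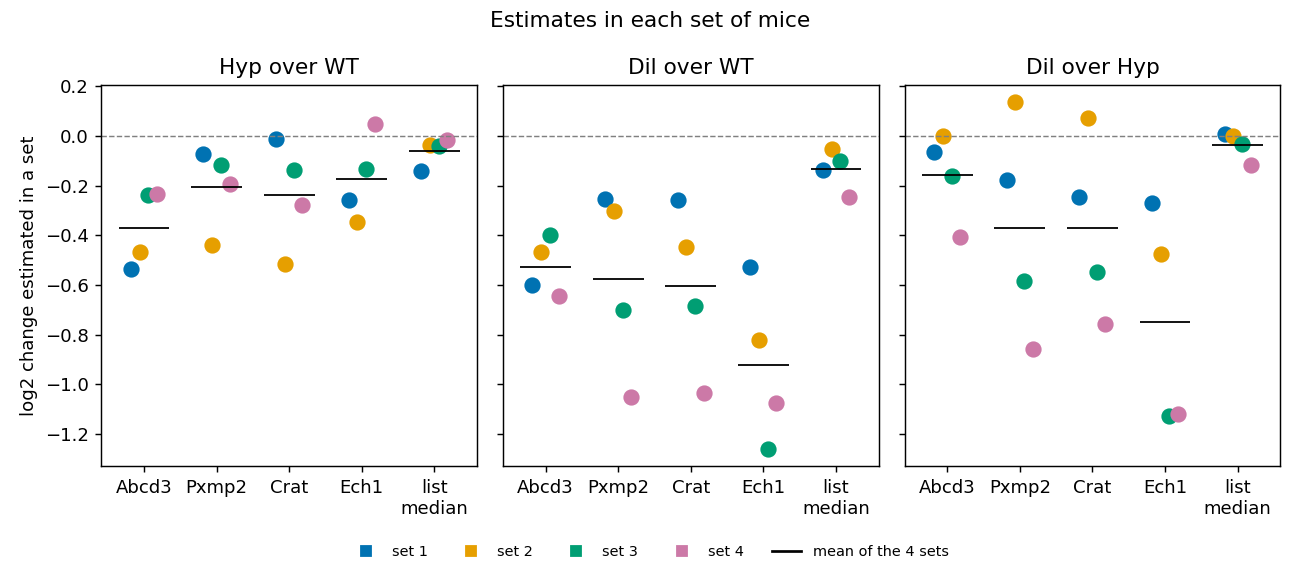
Log2 change estimated in each set of mice without a dye term, 1 coloured point per set, for Abcd3, Pxmp2, the enzymes Crat and Ech1 and the median of the 51 other measured genes of the peroxisomal lists, with black lines for the mean of the 4 sets. In the Dil over WT panel all points lie below 0, and Pxmp2 and Crat were lowest in set 4 while Ech1 was lowest in set 3.

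The other measured relatives of both genes had fitted values closer to 0 than Abcd3 and Pxmp2 in Dil minus WT. The way both members were chosen makes that likely, and the difference was not tested. Abcd4, a transporter of the same subfamily that serves vitamin B12 release from lysosomes, had a change of -0.12 ± 0.11 in Dil minus WT and -0.051 ± 0.10 in Hyp minus WT. Mpv17, a channel protein of the inner mitochondrial membrane, had -0.27 ± 0.088 in Dil minus WT and 0.038 ± 0.084 in Hyp minus WT, with set estimates of -0.32, -0.27, -0.36 and -0.088 in Dil. Mpv17l, an Mpv17-like protein, had 0.067 ± 0.11 and -0.075 ± 0.11, without a value on the array of Hyp1 and WT1. Limma's moderated test with Benjamini-Hochberg adjustment over all 12097 features gave adjusted p = 0.653 for Abcd4, 0.155 for Mpv17 and 0.819 for Mpv17l in Dil minus WT. In Dil minus Hyp Mpv17 had -0.30 ± 0.084 (limma, adjusted p = 0.217), farther from 0 than Abcd3 with -0.16 ± 0.080. Its set estimates there were -0.22, -0.51, -0.25 and -0.23 in sets 1 to 4. Abcd4 had -0.0695 ± 0.10 and Mpv17l 0.14 ± 0.10 in Dil minus Hyp.

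Of 110 other genes listed by role as peroxisomal or as relatives of the 2 members, 51 were measured. They are called peroxisomal genes for short, although some, such as Abcd4 and Mpv17, act elsewhere. The lists were drawn up with earlier results of these arrays known. In Dil minus WT 42 of the 51 lay below 0, with a median change of -0.11, against a median of 0.0029 and 48.9% below 0 over all features. In limma's test over all features (threshold 0.05) 2 of the 51, or 3.92%, were called lower and 0 were called higher, where 1.15% of all 12097 features were called lower and 1% higher. With the replicate block or the direct arrays alone, 0 of the 51 were called. At an unadjusted p under 0.05 in limma's test, 18 of the 51 were lower and 1 was higher, together 37.3%. Over all features 8.15% were lower and 8.09% higher, together 16.2%. In Hyp minus WT 39 of the 51 lay below 0 with a median of -0.077, against 0.0008 and 49.5% over all features. No peroxisomal gene was called there at the adjusted threshold, where 0% of all features were, although 7 of the 51 were lower and 0 higher at an unadjusted p under 0.05. These are 13.7% of the 51, against 1.98% lower and 2.43% higher over all features (533 features in either direction, or 4.41%). Both carrier groups were below WT for 36 of the 51 genes, or 70.6%, against 36.1% of all features, and they share the same WT mice.

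The 2 genes that passed in Dil hearts are enzymes of acyl groups that work both in mitochondria and in peroxisomes. Ech1, a dienoyl-CoA isomerase of unsaturated fatty acid oxidation, had log2 ratios of -0.60, -1.10 and -1.32 on the Dil over WT arrays of sets 1, 3 and 4, and of -0.19, -0.35, -0.29 and 0.29 on the Hyp over WT arrays of sets 1 to 4. The Dil and Hyp ratios do not overlap, which the choice of Ech1 by its Dil minus WT test on these arrays favours. The share of all features without overlap was not counted. The fitted change of Ech1 was -0.96 ± 0.14 in Dil minus WT (limma, adjusted p = 0.0132) and -0.19 ± 0.14 in Hyp minus WT. Crat, the carnitine acetyltransferase that buffers acetyl-CoA, had ratios of -0.16, -0.58 and -0.98 on the Dil over WT arrays and of -0.12, -0.52, -0.24 and -0.33 on the Hyp over WT arrays. Its ratios overlap between both comparisons, and its fitted changes were -0.65 ± 0.13 (limma, adjusted p = 0.0311) and -0.26 ± 0.12.

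Both calls were lost when each set was reduced to 1 estimate (replicate block; limma, adjusted p = 0.104 for Ech1 and 0.166 for Crat) and with the direct arrays alone (0.0727 and 0.131). They also depended on single sets of mice. Ech1 had adjusted p = 0.25 without set 3 and 0.146 without set 4 (limma). Crat had 0.0546, 0.0555, 0.307 and 0.156 without sets 1, 2, 3 and 4. The direction held in all 15 alternatives tried for each gene, with changes of -0.76 to -1.10 for Ech1 and -0.51 to -0.78 for Crat. Among these, the changed filters kept the same features and gave the same values as the fit reported.

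Of the 16 measured enzymes of peroxisomal fatty acid and ether lipid metabolism, 14 lay below 0 in Dil minus WT and 15 in Hyp minus WT, with medians of -0.15 and -0.11. Next to Ech1 and Crat, Mlycd, the malonyl-CoA decarboxylase, had -0.55 ± 0.14 in Dil minus WT (limma, adjusted p = 0.0712) and -0.36 ± 0.13 in Hyp minus WT. Ehhadh, the bifunctional enzyme of peroxisomal beta-oxidation, is named after its values were seen. Its set estimates were -0.53, -0.47, -0.42 and -0.39 in Dil minus WT and -0.60, -0.65, -0.40 and 0.099 in Hyp minus WT. Its fitted changes were -0.44 ± 0.12 and -0.38 ± 0.12 and neither passed. Hsd17b4, the other bifunctional enzyme of the same pathway and also picked after its values were seen, lay above 0 instead, with 0.33 ± 0.090 in Dil minus WT (limma, adjusted p = 0.0895) and 0.19 ± 0.086 in Hyp minus WT.

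Of the genes listed for building peroxisomes and importing their enzymes, 9 were measured, namely 6 PEX peroxins, the Pex5-related Pex5l, the deubiquitinase gene Usp9x and Zfand6. All 9 lay below 0 in Dil minus WT, with values of -0.0054 to -0.34 and a median of -0.090, and 0 were called. The median of the 6 peroxins alone was -0.15 in Dil minus WT and -0.11 in Hyp minus WT. Pex11a, which takes part in peroxisome division, had -0.34 ± 0.093 in Dil minus WT (limma, adjusted p = 0.0888) and -0.19 ± 0.088 in Hyp minus WT. Its set estimates in Dil minus WT were close together at -0.40, -0.34, -0.43 and -0.31. Zfand6, a zinc finger protein of receptor export, had -0.25 ± 0.086 and -0.19 ± 0.081, and Pex6, an ATPase that recycles the import receptor, had -0.28 ± 0.15 and -0.12 ± 0.15.

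Of the 14 other membrane proteins, 11 lay below 0 in Dil minus WT with a median of -0.071, and 0 were called. The molybdenum enzyme Mtarc2 had -0.36 ± 0.11 in Dil minus WT and -0.20 ± 0.11 in Hyp minus WT. Atad1, an ATPase that extracts misplaced membrane proteins, had -0.31 ± 0.13 and -0.12 ± 0.13 and no value on the array of Hyp1 and WT1. Slc27a2, a fatty acid transporter and very-long-chain acyl-CoA synthetase, had -0.17 ± 0.070 and -0.11 ± 0.067. Abcd3 and Pxmp2 thus had lower fitted values than each of these 14 proteins in both carrier comparisons, as the way they were chosen makes likely.

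Of 9 other measured matrix enzymes, 6 lay below 0 in Dil minus WT with a median of -0.051, and 0 were called. Mpv17l, which the list also holds, is left out of this count as a relative of Pxmp2. The 3 farthest from 0 have most of their protein in the cytosol. Sod1, the copper and zinc superoxide dismutase, had -0.43 ± 0.10 in Dil minus WT (limma, adjusted p = 0.0631) and -0.32 ± 0.099 in Hyp minus WT. Xdh, xanthine dehydrogenase, had -0.36 ± 0.14 and -0.35 ± 0.13. Idh1, the NADP-dependent isocitrate dehydrogenase, had -0.30 ± 0.085 and -0.19 ± 0.081.

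Nuclear receptors of the PPAR group, their coregulators and classical target genes had list medians closer to 0 than the 51 peroxisomal genes together. Of 18 measured genes 12 lay below 0 in Dil minus WT and 11 in Hyp minus WT, with medians of -0.057 and -0.0077, and 0 passed in any comparison. Pdk4, the pyruvate dehydrogenase kinase, had -0.062 ± 0.36 in Dil minus WT and -1.08 ± 0.34 in Hyp minus WT (limma, adjusted p = 0.977). Ucp3, a mitochondrial uncoupling protein, had -0.47 ± 0.29 and -0.59 ± 0.27, and Angptl4, a lipase inhibitor, had -0.11 ± 0.22 and -0.56 ± 0.21. Their errors are larger than those of Abcd3 in both comparisons, so the changes of these targets are poorly known. Other listed genes had smaller errors in Dil minus WT, such as Cpt1b with -0.35 ± 0.16 and Fabp3 with -0.029 ± 0.15, named after their values were seen. At an unadjusted p under 0.05 in limma's test, 4 of the 18 were lower and 0 higher in Dil minus WT, against 8.15% lower and 8.09% higher over all features.

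**Figure D3:**
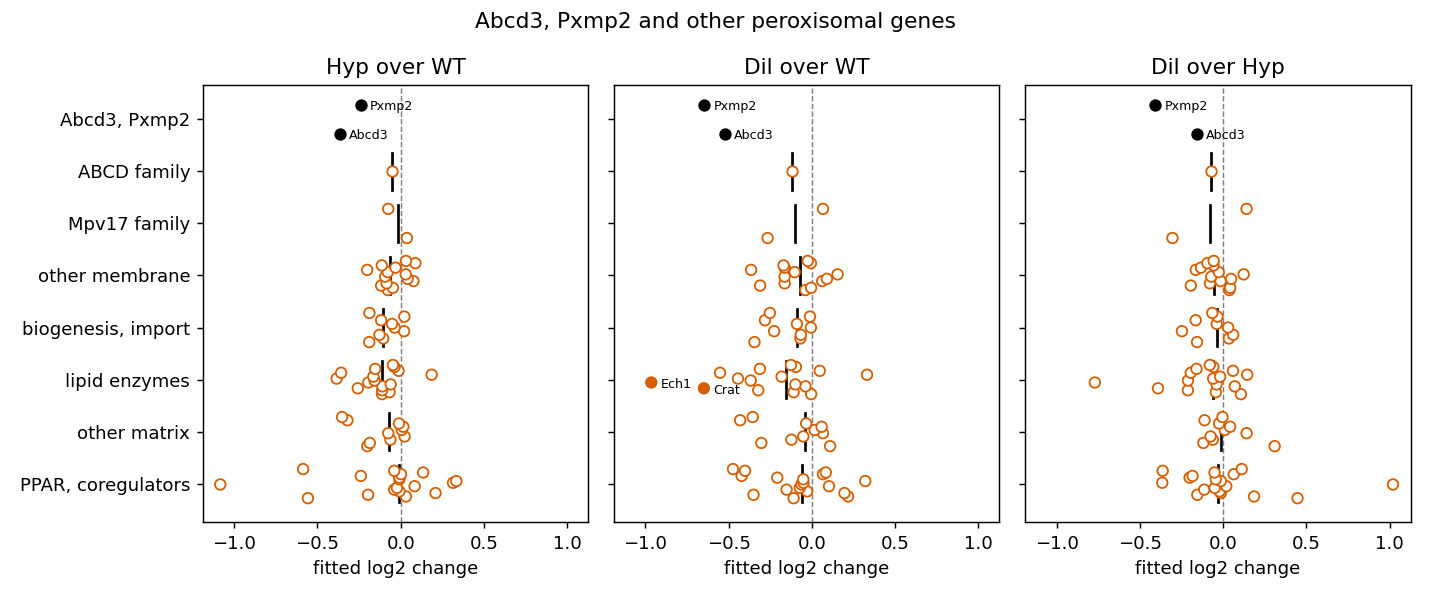
Fitted log2 change in Hyp over WT, Dil over WT and Dil over Hyp for Abcd3 and Pxmp2 (black points, top row) and each measured gene of the other lists (orange circles, filled where the gene passed limma's test), with black ticks for the list medians (Mpv17l stands in the rows of the Mpv17 family and of the other matrix genes). In the Dil over WT panel Ech1 and Crat are the 2 filled points, at -0.96 and -0.65, and the lowest list median is -0.15, of the lipid enzymes.

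In Dil minus Hyp 36 of the 51 lay below 0 with a median of -0.057, against 51.6% and -0.0037 over all features. None of these genes was called by limma's test, where 0.0248% of all features were called lower and 0.141% higher, and at an unadjusted p under 0.05 there were 3 lower and 1 higher, or 7.84% of the 51 against 9.64% of all features. Ech1 came nearest, at -0.77 ± 0.14 (limma, adjusted p = 0.0558), and Crat had -0.39 ± 0.12 (adjusted p = 0.28), beside -0.41 ± 0.12 for Pxmp2 and -0.16 ± 0.080 for Abcd3.

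The genes whose pattern over the arrays was most like that of each member were named by cosine similarity of the dye-corrected ratios, compared with 8105 genes. The arrays share mice, so the values are descriptions. Nearest to Abcd3 were Gpcpd1, a glycerophosphocholine phosphodiesterase (0.96), the calcium-binding protein gene Tesc (0.95, 10 arrays), the scaffold protein gene Erc1 (0.93), the endosomal cholesterol transporter gene Npc1 (0.93) and the inositol pyrophosphate kinase gene Ppip5k2 (0.93). Nearest to Pxmp2 were Serac1, whose product remodels phospholipids where mitochondria touch the endoplasmic reticulum (0.98, 10 arrays), the mitochondrial enoyl-CoA isomerase gene Eci1 (0.98), the succinate-CoA ligase subunit gene Suclg2 (0.98), the mitochondrial ribosome assembly factor gene Eral1 (0.98) and the D-glutamate cyclase gene Dglucy (0.98). The median over all genes was -0.031 for Abcd3 and -0.034 for Pxmp2.

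Abcd3 and Pxmp2 had a cosine of 0.87 with each other. This placed Pxmp2 at rank 45 among the genes nearest to Abcd3 and Abcd3 at rank 164 among those nearest to Pxmp2. All 10 named neighbours had a lower fitted value in Dil minus WT than in Hyp minus WT, like both members. Their choice by similarity to the members on these same ratios makes that likely, so it is no separate result. Among those of Abcd3, Tesc had -0.56 and -0.43, while Ppip5k2 had -0.88 and -0.45 and Npc1 had -0.42 and -0.23. Among those of Pxmp2, Dglucy had -0.64 and -0.23.

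**Figure D4:**
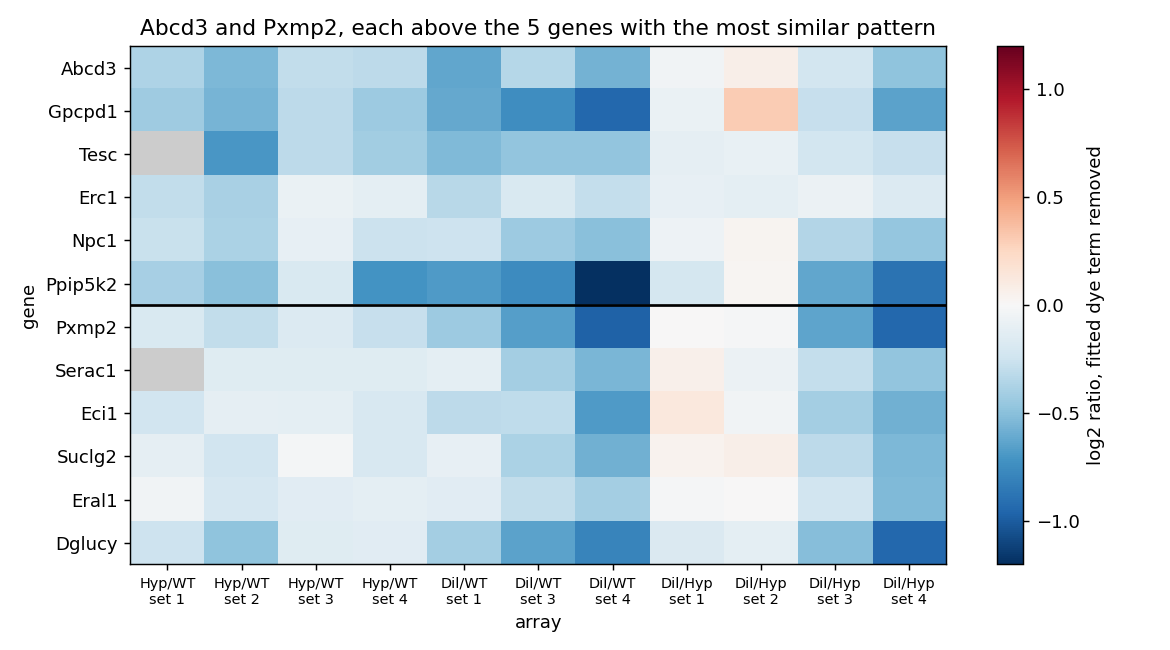
Dye-corrected log2 ratio on each of the 11 arrays (columns, first group over second) for Abcd3 and Pxmp2, each above its 5 nearest genes, with blue for lower in the first group and grey for no value on the array of set 1 for Tesc and Serac1. The upper block is blue in all carrier over WT columns, and the lower block is darkest in Dil over WT of set 4, where Pxmp2 has -0.97, and in Dil over Hyp of set 4, where it has -0.94.

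Markers of other heart cells were set beside these changes. Of 9 measured fibroblast markers 7 lay above 0 in Dil minus WT, with a median of 0.22 and set medians of 0.0056, 0.041, 0.54 and 0.45 in sets 1 to 4, and none was called. Sets 3 and 4, with the higher fibroblast medians, are those with the lower Pxmp2 in Dil hearts, and the part of fibroblasts in that result was not tested. In Hyp minus WT the fibroblast median was -0.0045. The median change in Dil minus WT was 0.017 over 7 endothelial, -0.061 over 5 adipocyte and 0.075 over 3 cardiomyocyte markers, 0.20 over 2 leukocyte markers, 0.22 over 2 erythrocyte markers and -0.033 over 3 smooth muscle and pericyte markers, and none of these markers was called in any comparison. Single markers lay far from these medians and are named after their values were seen. Myh11, the smooth muscle myosin gene, had -0.73 ± 0.18 in Dil minus WT (limma, adjusted p = 0.0595), a value below that of Pxmp2. The cardiomyocyte genes Actn2 and Ryr2 had 0.46 ± 0.18 and -0.33 ± 0.12 there. Alas2, of haem synthesis in red cell precursors, had 0.59 ± 0.12 in Dil minus Hyp (limma, adjusted p = 0.0845). The part of these cell types in the values of Abcd3 and Pxmp2 was not tested.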

How the data were processed

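Ventricular RNA of 12 mice was labelled with Cy3 or Cy5 and hybridised in pairs to 11 cDNA arrays. The authors deposited 1 log ratio per spot and array, taken here as log2 Cy5 over Cy3; scanner, background correction and normalization: not given in the sources used here. Each array had 17207 values and column medians lay between -0.011 and 0.0068. Spot brightness was not used, so depth is unknown and the number of arrays limits precision.

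The array of Hyp1 and WT1 was realigned: 40 of 46 groups of 12 positions were shifted by 8 blocks. This moved 11520 spots, left 3840 (21.7%) without a value there, and raised the correlation with the sum of the other set 1 arrays to 0.81, against 0.49 as deposited. Groups were shifted where that raised their correlation with this same sum, so the rise is no independent check. Spots left without a value do not enter the realigned correlation.

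The 736 control spots were left out. Of the rest, 12563 spots had 1 symbol in the platform annotation, 412 several and 3953 none. Spots of a gene were averaged, and features with values on at least 9 arrays were kept (12097 features, 8106 of them named genes). Generalised least squares gave Hyp minus WT, Dil minus WT and a dye term, with mice as random effects (variance ratio 0.303) and limma 3.58.1 moderation in R 4.3.3 (prior degrees of freedom 3.26). P-values were adjusted by Benjamini-Hochberg with a threshold of 0.05. Standard errors share 1 variance ratio over all features, so they can understate the spread between mice. The fit was tested on simulated data.

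Members and lists (relatives of both genes, other membrane proteins, biogenesis and import genes, lipid enzymes, other matrix enzymes, PPAR genes and cell markers) were chosen with earlier results of these data known. Named were list genes that passed, all relatives, the 3 largest mean carrier changes of each list, and the 5 nearest genes by cosine. Alternatives changed the realignment, dye term, scaling, centring, mouse effects, filter, arrays used, spot averaging and sets. The single Abcd3 spots were added after seeing the data.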

Additional observations from a re-analysis of the deposited data

How the results depend on the processing

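All fitted changes of Abcd3 (17 alternatives) and Pxmp2 (15) stayed below 0 in the 3 comparisons. Abcd3 ranged from -0.59 to -0.46 in Dil minus WT, from -0.44 to -0.29 in Hyp minus WT and from -0.24 to -0.052 in Dil minus Hyp. Pxmp2 ranged from -0.77 to -0.49, from -0.27 to -0.18 and from -0.54 to -0.25 in the same comparisons. The count of peroxisomal genes called in Dil minus WT, 2 in the fit reported, was 1 with arrays scaled to the same spread (Crat lost, adjusted p = 0.0503) and 0 with the direct arrays alone. It lay between 0 and 1 when a set was left out: 1 without set 1 or 2, and 0 without set 3 or 4. It was 3 with the median of spots, where Idh1 also passed (adjusted p = 0.0437). With the replicate block, which reduces each set to 1 estimate without a dye term, 0 were called (adjusted p = 0.104 for Ech1 and 0.166 for Crat), and over all features 4 instead of 260. The direct arrays gave 7 calls, scaling gave 99, and 159 were called without the array of Hyp1 and WT1, 377 without mouse effects, and 121, 80, 0 and 12 without sets 1, 2, 3 and 4. In Dil minus Hyp 1 peroxisomal gene, Ech1, was called with the array of Hyp1 and WT1 as deposited, without a dye term or without mouse effects (adjusted p = 0.0378, 0.0465 and 0.0345). Over all features the 20 calls in Dil minus Hyp came to 41, 43 and 52 under these 3 settings, to 7 without that array, and to 0 with the replicate block, with direct arrays or without set 1, 3 or 4. The causes were not tested. In Hyp minus WT no alternative gave a call. Because mice of a set are hybridised together, the set number already pairs the mice. Same-set correlations of deviations ran from -0.58 to 0.55 over 10 pairs of arrays. Hyp minus WT and Dil minus Hyp hold the shared Hyp mouse with opposite signs, so a mouse effect there would give a negative value. These values were -0.49, -0.58, 0.14 and -0.083 in sets 1 to 4. The highest value, 0.55, is that of Dil minus WT with Hyp minus WT in set 1 and includes the realigned array. The size of mouse effects was not tested by these correlations.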
